A study of Mus musculus with 11 samples.

Results

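The fibroblast growth factor (FGF) family was examined in neurons of the sensory thalamus at birth, as 37 genes chosen by name and role: 18 secreted ligands, 4 intracellular FGF homologous factors, 5 receptors and 10 genes that dampen or report the signal. A gene record was found in the count files for 36 of the 37, and 21 of these passed the filter on low counts and were tested. Spry3 was not analysed here. The libraries came from the dorsolateral geniculate nucleus (dLG, vision), the ventral posteromedial nucleus (VPM, facial touch) and, for hearing, the ventral division of the medial geniculate nucleus (MGv), with 4, 4 and 3 libraries. All were made from outbred ICR/CD-1 mice at postnatal day 0 that carried Gbx2CreER-IRES-EGFP and R26lsl-tdTomato, each over a wild-type allele, so the driver, a tamoxifen-inducible Cre expressed from Gbx2, was shared by all groups. Red cells from 4 pooled brains were sorted for each library, and only cells in which the Gbx2 driver had been active, and their descendants, could be red. Nothing in the labels says that libraries came from separate litters or sorts, so p-values measure the spread between these libraries.

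Secreted FGFs bind FGF receptors, which are tyrosine kinases, together with heparan sulfate or a klotho protein. The receptors signal through RAS to the kinase ERK, and ERK activity switches on its own brakes, the Sprouty and Spred proteins and the phosphatase DUSP6, as well as ETS transcription factors. The FGF homologous factors share the FGF fold but stay inside the cell, where they bind voltage-gated sodium channels and do not act as ligands. In the developing brain, FGFs pattern the tissue early and later take part in synapse formation.

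Depth was between 10.2 and 23.6 M counts per library, and each MGv library (at most 13.2 M) was shallower than each library of the other nuclei (at least 15.9 M). A total of 3 counts, taken as the limit of what a library could show, was 0.127 to 0.295 counts-per-million (CPM). The 9 pan-neuronal markers summed to between 10810 and 15390 CPM in every library, and the 6 thalamic markers were present throughout. RNA of genes used as markers of other cells was present. The 12 progenitor and astroglial markers summed to 216.9 to 381.2 CPM, mostly from Sox2, Fabp7, Slc1a3 and Vim, while Gfap did not exceed 0.0865 CPM. Whether this RNA came from other cells or from the sorted neurons was not tested. Hemoglobin RNA summed to 512.1 CPM in dLG replicate 3 and to at most 11.7 CPM elsewhere. A subset of 3 libraries, 1 per nucleus (dLG replicate 2, VPM replicate 3 and MGv replicate 1), had 3.05 to 5.56 CPM of the chaperone gene Hspa8, against 159 to 581 CPM in the other 8. Fewer cells that express a gene and less RNA of it per cell cannot be told apart in sorted bulk RNA.

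Dusp6 had the smallest adjusted p of the members in both contrasts with VPM, and Fgf9 was the most abundant secreted ligand. Sequence upstream of their start sites, and of Spry2 as a second feedback gene, is shown. Dusp6 and Fgf9 were both highest in VPM, and Spry2 was higher in dLG than in VPM. Windows are the 250 bases before the annotated start in RefSeq (GRCm38.p6, 5′ to 3′ on the gene's strand), and capitals mark CGGAA or its reverse complement TTCCG, the core that ETS factors bind.

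Dusp6, chr10:99262981-99263230, plus strand: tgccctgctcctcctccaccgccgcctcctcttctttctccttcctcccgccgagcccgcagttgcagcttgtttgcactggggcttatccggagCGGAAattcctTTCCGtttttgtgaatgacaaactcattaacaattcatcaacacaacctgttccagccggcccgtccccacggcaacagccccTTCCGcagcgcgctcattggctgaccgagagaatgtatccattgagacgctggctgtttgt
Fgf9, chr14:58072436-58072685, plus strand: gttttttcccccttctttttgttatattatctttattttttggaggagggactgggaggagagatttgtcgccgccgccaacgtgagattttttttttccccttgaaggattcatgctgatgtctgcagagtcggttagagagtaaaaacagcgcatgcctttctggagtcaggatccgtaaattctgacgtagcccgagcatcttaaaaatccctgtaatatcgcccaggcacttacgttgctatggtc
Spry2, chr14:105896820-105897069, minus strand: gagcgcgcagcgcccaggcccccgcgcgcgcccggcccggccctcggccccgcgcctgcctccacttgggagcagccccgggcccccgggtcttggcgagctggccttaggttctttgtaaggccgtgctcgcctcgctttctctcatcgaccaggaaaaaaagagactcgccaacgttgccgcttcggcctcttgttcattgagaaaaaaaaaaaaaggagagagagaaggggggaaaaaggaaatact

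The Dusp6 window held 3 matches, which began 155, 144 and 61 bases before the start. Windows with 3 or more matches made up 2.12% of 32851 RefSeq windows of this length, and 25.2% held at least 1. Over the members, 10 of 35 windows (28.6%) held at least 1, a share close to that of all windows, and Fgf5, also highest in VPM, had 1 match. The Fgf9 and Spry2 windows held 0 matches. The Fgf9 window lies within the longer span that GENCODE gives the gene and overlaps none of its annotated exons. Both strands were searched for CGGAA and for the cAMP response element TGACGTCA, which do not overlap in letters, and the latter was in 0 of the 35 windows of 27 members and in 1.55% of all windows. A match is a run of letters and not a bound site. The 2 motifs were picked after these sequences and results had been seen. Fgf15 had no entry, and the windows of Spry1 and Fgf22 overlap annotated exons and are not printed.

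Between dLG and VPM, 7 of the 21 tested members differed (33.3%), where 10.7% of all 15907 genes tested did (edgeR quasi-likelihood test, Benjamini-Hochberg adjusted p under 0.1, two-sided). Of these, 2 were higher in dLG (all genes: 4.97%) and 5 were higher in VPM (all genes: 5.74%). The difference between dLG and MGv was called for 5 members (23.8%) against 16.1% of all genes, with 4 higher in dLG (all genes: 8.61%) and 1 higher in MGv (all genes: 7.49%). VPM and MGv differed in 4 members, all higher in VPM, a share of 19.0% that matched the 19.0% of all genes (10.4% higher in VPM, 8.56% higher in MGv). The median log2 fold change over the tested members was 0.05, 0.18 and 0.13 in the 3 contrasts, and over all genes 0.0048, 0.02 and 0.02. With 21 genes tested, these shares rest on few members.

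A nucleus was called highest where a gene was higher there than in each of the other nuclei. Fgf5, Fgf9 and Dusp6 were highest in VPM, which 2.41% of all genes were, and Fgf15 was highest in dLG, which 2.04% of all genes were. No member was highest in MGv (all genes: 3.66%). The 12 members that passed the filter without a call in any contrast included all 4 receptors tested. In the single contrasts 10.7%, 16.1% and 19.0% of all genes were called, and the share called in at least 1 contrast was not computed.

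**Figure D1:**
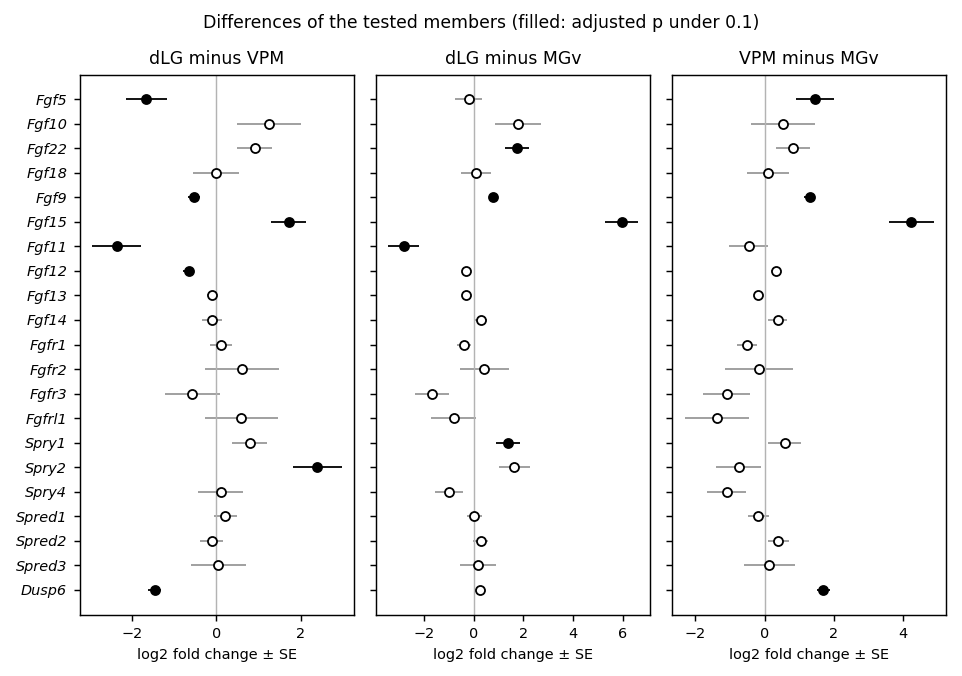
Log2 fold changes (x axis) with standard errors for the 21 tested members (rows) in the 3 contrasts, each the first nucleus minus the second, from the edgeR fit of all 11 libraries. Filled points have an adjusted p under 0.1; 7, 5 and 4 members are filled, and Fgf15 lies furthest to the right in dLG minus MGv, at 5.95.

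Among the secreted ligands, 6 of 18 passed the count filter. Fgf9 (chr14:58070547-58112720, plus strand; positions are in GRCm38), a ligand released by neurons among other cells, stood at 41.6, 56.6, 47.0 and 46.9 CPM in dLG, at 75.5, 72.7, 60.8 and 67.5 CPM in VPM and at 26.8, 25.5 and 32.0 CPM in MGv. The libraries of the 3 nuclei did not overlap, with VPM on top and MGv lowest. The means were 48.0 ± 6.3 CPM (SD, n = 4), 69.1 ± 6.5 CPM (SD, n = 4) and 28.1 ± 3.4 CPM (SD, n = 3). Fgf9 was thus 1.44-fold higher in VPM than in dLG (log2 fold change of dLG minus VPM -0.53 ± 0.14 (SE), adjusted p = 0.0321), 1.71-fold higher in dLG than in MGv (0.78 ± 0.15, adjusted p = 0.00397) and 2.46-fold higher in VPM than in MGv (1.30 ± 0.15, adjusted p = 8.73e-05). Scaled to total counts, the first of these had an adjusted p of 0.117. Per length of exon, Fgf9 was the most abundant secreted ligand, with a mean of 10.8 CPM per kilobase over the libraries. Its nearest relatives were far lower: Fgf20 did not exceed 0.526 CPM and Fgf16 was at 0 counts in all 11 libraries.

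Fgf15, the mouse counterpart of human FGF19, is a gut hormone in the adult and is made by neural progenitors in the embryo. Its counts were 189, 252, 265 and 281 in dLG, 51, 55, 114 and 76 in VPM, and 6, 1 and 0 in MGv. In CPM these were 11.5, 10.8, 14.4 and 13.4 in dLG, 2.36, 2.38, 7.07 and 3.61 in VPM, and 0.451, 0.0878 and 0 in MGv. The nuclei followed each other without overlap, and within VPM replicate 3 held the highest value. Fgf15 was 3.27-fold higher in dLG than in VPM (log2 fold change 1.71 ± 0.40 (SE), adjusted p = 0.0190). The contrasts with MGv were the largest among the 21 tested members, at 5.95 ± 0.65 for dLG (adjusted p = 4.61e-05) and 4.24 ± 0.65 for VPM (adjusted p = 0.000740). They rest on 7 MGv counts in all: the ratio of pooled CPM was 63.9 for dLG over MGv (95% exact interval 30.9 to 159) and 17.3 for VPM over MGv (8.31 to 43.5), intervals that cover counting error only. Without MGv replicate 1, which held 6 of the 7 counts, the fitted value was 7.89 for dLG minus MGv and 6.18 for VPM minus MGv. All 3 calls held in each alternative in which Fgf15 was tested.

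An antisense gene overlaps Fgf15. Gm26793 lies on the opposite strand and, with Gm39119, covers 25.7% of the exon bases of Fgf15 (chr7:144896531-144900953, plus strand). It was higher than Fgf15 in every library, with 37.5 to 51.3 CPM in dLG, 15.6 to 45.3 CPM in VPM and 2.72 to 8.79 CPM in MGv. Its order over the nuclei was that of Fgf15, with a log2 fold change of 0.80 ± 0.35 between dLG and VPM (adjusted p = 0.207), 3.05 ± 0.43 between dLG and MGv (adjusted p = 0.000393) and 2.25 ± 0.42 between VPM and MGv (adjusted p = 0.00322). VPM replicate 3 was the highest VPM library for both genes. Whether strand was used in counting is not given in the sources used here, so reads of the 2 genes within the overlap cannot be told apart. Gm26793 was looked at after the values of Fgf15 were seen.

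Fgf5 (chr5:98254184-98277030, plus strand), a ligand best known for ending the growth phase of hair, was low and was highest in VPM. It stood at 0.852, 1.42, 0.381 and 1.29 CPM in dLG, at 4.50, 2.03, 2.67 and 3.38 CPM in VPM and at 0.826, 2.02 and 0.583 CPM in MGv. All VPM libraries lay above all others, but VPM replicate 2 and MGv replicate 2 differed by little. The increase in VPM was 3.15-fold over dLG (log2 fold change of dLG minus VPM -1.66 ± 0.49 (SE), adjusted p = 0.0550) and 2.74-fold over MGv (1.45 ± 0.55, adjusted p = 0.0993). These calls were close to the threshold. Leaving out dLG replicate 1 or 3, or VPM replicate 1 or 4, raised the first adjusted p to 0.138, 0.121, 0.170 and 0.104. For VPM against MGv the call was lost in 8 of the 11 fits without a single library, with adjusted p of up to 0.271 (without MGv replicate 3).

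Fgf22 (chr10:79755076-79758596, plus strand), a ligand of the FGF7 family that helps organise presynaptic terminals, had 9.68, 6.14, 3.21 and 9.50 CPM in dLG, 3.34, 2.99, 5.52 and 3.42 CPM in VPM and 2.25, 3.42 and 0.680 CPM in MGv. The ranges of the nuclei overlapped, because dLG replicate 3 fell below MGv replicate 2. The mean was 7.13 ± 3.1 CPM (SD, n = 4) in dLG and 2.12 ± 1.4 CPM (SD, n = 3) in MGv, a 3.33-fold difference (log2 fold change 1.74 ± 0.49 (SE), adjusted p = 0.0346). Without MGv replicate 3 the adjusted p was 0.113. VPM was between the other nuclei and was not called different from dLG (0.91 ± 0.42, adjusted p = 0.245) or MGv (0.83 ± 0.49, adjusted p = 0.296).

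The remaining ligands were at the edge of detection. Fgf10 and Fgf18 passed the filter without a call, at up to 1.36 and 1.25 CPM. Fgf18, the most abundant of the FGF8 family per length, had 1.04, 0.902, 0.654 and 0.620 CPM in dLG. It had 1.25, 1.04, 0.186 and 0.713 CPM in VPM and 0.526, 0.878 and 0.875 CPM in MGv. Fgf2, the most abundant of the FGF1 family per length, had 0, 0.172, 0 and 0.191 CPM in dLG, 0.788, 0.260, 0 and 0.143 CPM in VPM and 0.225, 0 and 0.292 CPM in MGv, and 9.44% of its exon bases overlap the antisense gene Nudt6, which had 9.85 to 15.9 CPM on average in the nuclei. Another 9 ligands gave some counts without passing the filter: Fgf1, Fgf3, Fgf6, Fgf7, Fgf8, Fgf17, Fgf20, Fgf21 and Fgf23, of which Fgf7 reached the most, 1.05 CPM. Fgf4 and Fgf16 had 0 counts in all libraries. Fgf3, which was not tested in the main fit, had 8, 9, 4 and 9 counts in dLG, 2, 2, 0 and 2 in VPM and 0 in each MGv library. The 0 of 34.7 M MGv counts allows up to 0.0864 CPM of Fgf3 (3 counts), below the pooled dLG value of 0.392 CPM (95% exact Poisson interval 0.264 to 0.559) and above the pooled VPM value of 0.0709 CPM. Fgf3 (chr7:144838083-144844436), Fgf4 (chr7:144847367-144865243) and Fgf15 lie next to each other on the plus strand. Fgf4, between the others, had no counts, and Fgf3 and Fgf15 each had their highest pooled CPM in dLG, a likeness noticed in the values and not tested.

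**Figure D2:**
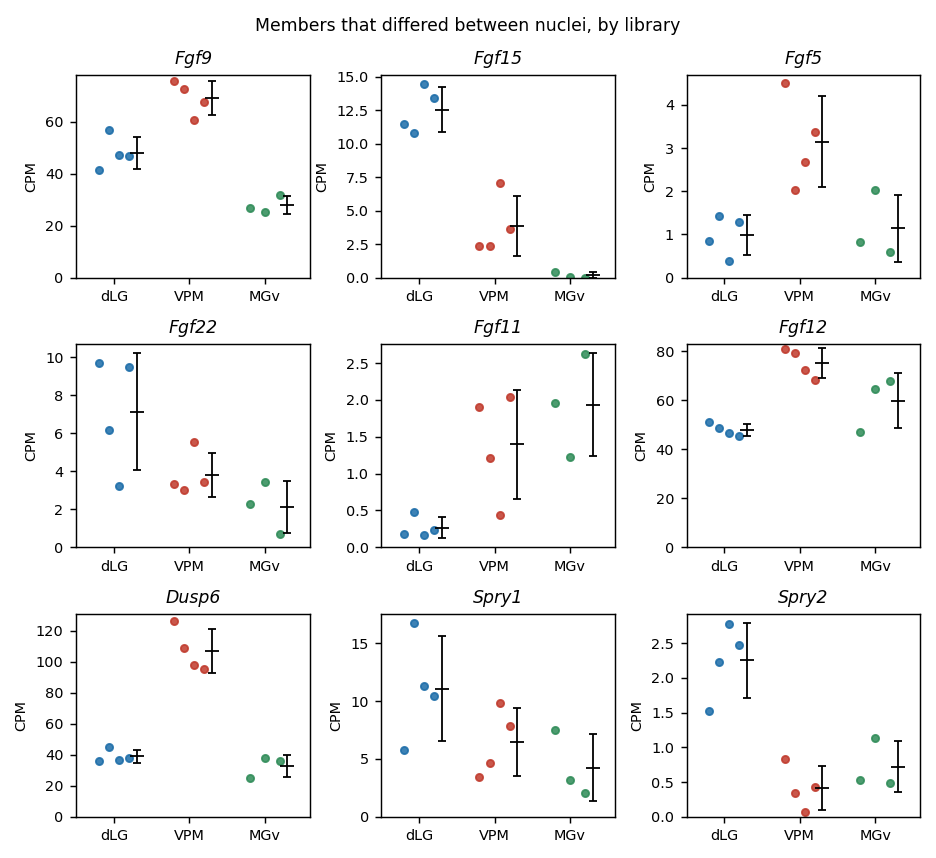
CPM (TMM-scaled, y axes from 0) of the 9 members that differed in at least 1 contrast, by nucleus. Each point is a library, and black marks give the mean and SD of 4 dLG, 4 VPM and 3 MGv libraries. Fgf9 and Fgf15 separate all nuclei. Dusp6 separates VPM from the rest, Fgf5 does so by a very small gap to MGv, and Fgf22 and Spry1 overlap.

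The 4 FGF homologous factors were the most abundant group. Of these, 2 were called between dLG and VPM (all genes: 10.7%), 1 between dLG and MGv (all genes: 16.1%) and 0 between VPM and MGv (all genes: 19.0%). Fgf13 (chrX:59062145-59568071, minus strand), which besides sodium channels binds microtubules in young neurons, had 722, 752, 643 and 624 CPM in dLG, 761, 785, 708 and 703 CPM in VPM and 884, 831 and 828 CPM in MGv. Every MGv library was above every other, yet no contrast passed in the main fit (log2 fold change of dLG minus MGv -0.31 ± 0.11 (SE), adjusted p = 0.106). This contrast was close to the threshold and passed in some alternatives. Its adjusted p was 0.0606 by DESeq2, 0.0401 by limma voom and 0.0525 without VPM replicate 3. Fgf13 made up 91.0% to 95.2% of the summed CPM per kilobase of the 4 factors in each library and, at 186 CPM per kilobase on average, was higher than every other member.

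Fgf12 (chr16:28160098-28753068, minus strand), a sodium channel regulator, stood at 51.0, 48.7, 46.8 and 45.5 CPM in dLG, at 81.0, 79.3, 72.3 and 68.3 CPM in VPM and at 47.3, 64.8 and 67.7 CPM in MGv. VPM was above both other nuclei in every library, by a small gap to MGv. It was 1.57-fold higher in VPM than in dLG (log2 fold change of dLG minus VPM -0.65 ± 0.13 (SE), adjusted p = 0.00861). The differences of dLG minus MGv (-0.32 ± 0.14, adjusted p = 0.193) and VPM minus MGv (0.33 ± 0.15, adjusted p = 0.160) did not pass. MGv replicate 1 was the low MGv library, and without it dLG minus MGv had an adjusted p of 0.0622.

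Fgf11 (chr11:69796068-69801857, minus strand) was low everywhere and lowest in dLG. It had 0.183, 0.473, 0.163 and 0.239 CPM in dLG (3, 11, 3 and 5 counts), 1.9, 1.21, 0.434 and 2.04 CPM in VPM and 1.95, 1.23 and 2.62 CPM in MGv. All MGv libraries exceeded all dLG libraries, while VPM replicate 3 fell within the dLG range. The fitted difference was 5.10-fold in favour of VPM (log2 fold change of dLG minus VPM -2.35 ± 0.58 (SE), adjusted p = 0.0245) and 7.01-fold in favour of MGv (-2.81 ± 0.62, adjusted p = 0.00813). Fgf14 had 9.48 to 21.6 CPM over the libraries and was not called in any contrast. Of 4 neuronal sodium channel genes (Scn1a, Scn2a, Scn3a and Scn8a), only Scn8a was called in a contrast, at 47.1 ± 9.8 CPM (SD, n = 4) in VPM and 29.8 ± 8.3 CPM (SD, n = 3) in MGv (log2 fold change 0.66 ± 0.21, adjusted p = 0.0571).

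**Figure D3:**
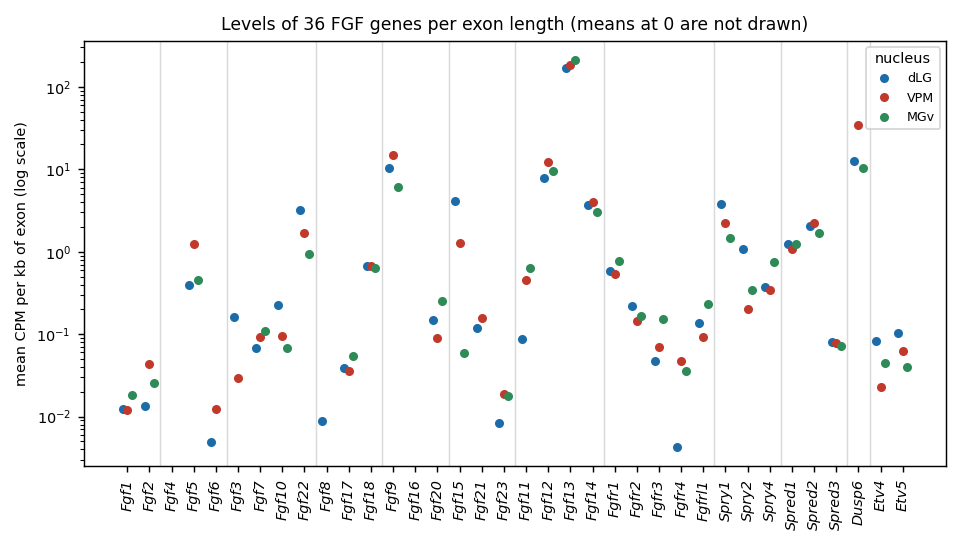
Mean CPM per kilobase of exon (log axis) of the 36 members in each nucleus, with vertical lines between classes of ligands, FGF homologous factors, receptors and feedback genes. Fgf13 is highest in all nuclei at 171 to 211 CPM per kilobase, and means at 0 are not drawn.

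The receptors were low beside these genes. Fgfr1, the most abundant of them per length at 0.622 CPM per kilobase, had 3.96, 6.79, 6.32 and 6.16 CPM in dLG, 6.63, 5.50, 3.29 and 6.04 CPM in VPM and 7.74, 8.60 and 6.51 CPM in MGv. The ranges overlapped, and no contrast passed, the largest being VPM minus MGv at -0.50 ± 0.28 (SE, log2; adjusted p = 0.273). Fgfr2 had 6.96 CPM in dLG replicate 2 and at most 3.50 CPM in the other 10 libraries. That library also had the highest sum of 7 oligodendrocyte lineage markers among the dLG libraries, 30.5 CPM against 13.1 to 15.8 CPM. These markers summed to 33.7 to 43.9 CPM in VPM and 74.9 to 86.5 CPM in MGv, so that they separated all 3 nuclei without overlap while Fgfr2 did not, and the part of such cells in the Fgfr2 values was not tested. Fgfr3, a marker of progenitors and astroglia in the brain, ranged from 0.0859 to 0.708 CPM in dLG and from 0.751 to 1.26 CPM in MGv, without overlap between these nuclei, and was not called (log2 fold change of dLG minus MGv -1.67 ± 0.69 (SE), adjusted p = 0.148). The sum of progenitor and astroglial markers overlapped between dLG (248.3 to 381.2 CPM), VPM (227.2 to 294.8 CPM) and MGv (216.9 to 323.5 CPM), but single markers went both ways: of the 11 tested, 2 were called higher in dLG than in MGv and 3 higher in MGv. The part of such cells in the Fgfr3 values was not tested. Fgfrl1, a receptor without a kinase domain, did not exceed 0.965 CPM, and Fgfr4, at no more than 0.292 CPM, was not tested.

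Of the feedback genes, Dusp6, Spry2 and Spry1 were called in at least 1 contrast. Dusp6 (chr10:99263231-99267489, plus strand), the phosphatase that inactivates ERK, had 36.0, 45.3, 36.9 and 37.7 CPM in dLG, 126, 109, 97.8 and 95.1 CPM in VPM and 24.9, 37.7 and 36.1 CPM in MGv. Each VPM library was far above each library of the other nuclei, which overlapped with each other. The means were 39.0 ± 4.3 CPM (SD, n = 4) in dLG, 107 ± 14 CPM (SD, n = 4) in VPM and 32.9 ± 6.9 CPM (SD, n = 3) in MGv. Dusp6 was 2.74-fold higher in VPM than in dLG (log2 fold change of dLG minus VPM -1.46 ± 0.16 (SE), adjusted p = 5.58e-05) and 3.25-fold higher than in MGv (1.70 ± 0.18, adjusted p = 3.17e-05). dLG and MGv were not called different (0.25 ± 0.17, adjusted p = 0.421). Both calls held in all 25 alternatives, with log2 fold changes of -1.58 to -1.36 and 1.54 to 1.82.

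Of the Sprouty genes, Spry2 was called between dLG and VPM and Spry1 between dLG and MGv, both higher in dLG, and Spry4 in no contrast. Spry2 (chr14:105891947-105896819, minus strand), an inhibitor of signalling from receptor tyrosine kinases, had 1.52, 2.23, 2.78 and 2.48 CPM in dLG (25, 52, 51 and 52 counts), 0.834, 0.346, 0.0620 and 0.428 CPM in VPM and 0.526, 1.14 and 0.486 CPM in MGv. All dLG libraries lay above all others. The increase over VPM was 5.24-fold (log2 fold change 2.39 ± 0.58 (SE), adjusted p = 0.0212), and that over MGv did not pass (1.64 ± 0.63, adjusted p = 0.120).

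Spry1 (chr3:37639947-37644598, plus strand), of the same family, had 5.78, 16.8, 11.3 and 10.5 CPM in dLG, 3.48, 4.63, 9.86 and 7.85 CPM in VPM and 7.51, 3.16 and 2.04 CPM in MGv. The ranges overlapped because dLG replicate 1 was low and MGv replicate 1 was high. The difference between dLG and MGv was 2.59-fold (log2 fold change 1.37 ± 0.48 (SE), adjusted p = 0.0869). It was lost without dLG replicate 2, 3 or 4 (adjusted p = 0.187, 0.144 and 0.127), without VPM replicate 2 or 4 (0.1003 and 0.101) and without MGv replicate 2 or 3 (0.226 and 0.281), and the fitted log2 fold change was 2.09 without MGv replicate 1. An antisense gene, Gm42922, covers 24.4% of the exon bases of Spry1 but did not exceed 0.191 CPM.

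Spry4 was at 3.42 to 3.69 CPM in MGv and at 0.426 to 4.08 CPM in dLG, with no call in any contrast (dLG minus MGv -0.99 ± 0.57 (SE, log2), adjusted p = 0.317). The high dLG value was that of replicate 2, and without this library the log2 fold change was -1.83 (adjusted p = 0.0255). Spry4 was also called higher in MGv than in dLG by limma voom and without the libraries low in Hspa8, at -1.81 and -1.84. No call was made for the Spred genes, whose products also restrain RAS signalling. Spred2, the most abundant of them per length, had 4.87, 8.51, 13.7 and 11.0 CPM in dLG, 11.8, 10.9, 7.88 and 10.4 CPM in VPM and 6.84, 8.86 and 7.68 CPM in MGv, so that the dLG libraries spanned the range of the others. The smallest adjusted p of Spred1, Spred2 and Spred3 was 0.438. The ETS factor genes Etv4 and Etv5, commonly read as reporters of FGF signalling, were too low to be tested. Etv5 had 0.426, 0.0430, 0.872 and 0.334 CPM in dLG, 0.232, 0.130, 0.372 and 0.285 CPM in VPM and 0.225, 0.263 and 0 CPM in MGv, and Etv4 reached 0.708 CPM at most.

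Genes induced by tissue dissociation, some of which ERK can also switch on, had another order. The 10 such genes tested (Fos, Fosb, Jun, Junb, Egr1, Atf3, Dusp1, Ier3, Hspa1a and Hspa1b) summed to 490.7 to 749 CPM in dLG, 286.8 to 389.3 CPM in VPM and 605 to 838.7 CPM in MGv, and none was at 0 in a whole nucleus. Of these, 5 were called higher in dLG than in VPM (all genes: 4.97%) and 6 higher in MGv than in VPM (all genes: 8.56%). Between dLG and MGv 1 was called, higher in MGv (all genes: 7.49%). The sum was thus lowest in VPM, where Dusp6 was highest. Spry2 was higher in dLG than in VPM, as were 5 of these 10 genes. The other 5 were not called between dLG and VPM. The part of dissociation in the values of the feedback genes was not tested.

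**Figure D4:**
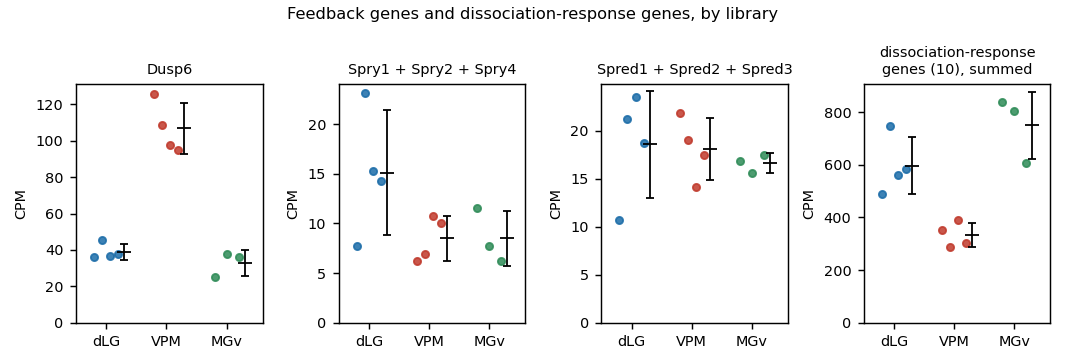
CPM (y axes from 0) of Dusp6, of the summed Sprouty genes, of the summed Spred genes and of 10 dissociation-response genes, by nucleus. Points are libraries and black marks are means and SD (n = 4, 4 and 3); VPM is highest for Dusp6 and lowest for the dissociation-response genes.

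Beyond the members, 57 further genes of the pathway were measured and 53 were tested. Between dLG and VPM 5 of them differed (2 higher in dLG, 3 in VPM; 9.43% against 10.7% of all genes), between dLG and MGv 11 (5 and 6; 20.8% against 16.1%), and between VPM and MGv 12 (7 and 5; 22.6% against 19.0%). Of the 13 adaptor genes, Grb2 and Ptpn11 were called in at least 1 contrast. The shares by contrast were 7.69%, 7.69% and 15.4%, each below that of all genes. Grb2, the adaptor that links receptors to RAS activation, was highest in VPM, at 93.1 ± 13 CPM (SD, n = 4), 1.62-fold above dLG and 1.47-fold above MGv (adjusted p = 0.00901 and 0.0334). Of the 13 genes of the RAS to ERK cascade, Araf, Map2k2 and Ksr1 were called in at least 1 contrast. Here the shares were 0%, 15.4% and 15.4%, the second close to the 16.1% of all genes. Other classes had higher shares. Of the 12 further feedback and target genes 33.3%, 41.7% and 25% were called. Of the 5 coreceptor and modulator genes tested, 0%, 60% and 60% were. The 6 PI3-kinase branch genes had 0%, 0% and 16.7%, and the 4 sodium channel genes 0%, 0% and 25%. Each of these shares rests on few genes. The klotho coreceptor genes Kl and Klb, which the hormone-like FGFs including Fgf15 need, were too low to test, at up to 0.387 and 0.558 CPM.

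The widest differences of this wider set were in ETS factors. Etv1, a relative of Etv4 and Etv5, ranged from 0.381 to 0.516 CPM in dLG, from 6.99 to 16.8 CPM in VPM and from 5.88 to 22.3 CPM in MGv. It was 25.2-fold higher in VPM and 26.2-fold higher in MGv than in dLG (log2 fold change -4.65 ± 0.50 and -4.71 ± 0.51 (SE), adjusted p = 5.26e-05 and 4.43e-05). Elk3, an ETS factor that ERK phosphorylates, went the other way, with 6.21 to 7.73 CPM in dLG and at most 1.02 CPM in the other nuclei (3.46 ± 0.35 over VPM and 3.97 ± 0.43 over MGv, adjusted p = 3.81e-05 and 4.18e-05). Spsb1, which encodes a substrate adaptor of a ubiquitin ligase, separated all nuclei as Fgf9 did, at 2.62 to 2.82 CPM in dLG, 7.18 to 10.5 CPM in VPM and 0.486 to 1.43 CPM in MGv.

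The FLRT genes encode membrane proteins that bind FGF receptors and guidance receptors. Flrt3 had 47.3 to 53.9 CPM in MGv and 11.2 to 21.2 CPM in the other nuclei, and was 3.32-fold higher than in dLG and 4.31-fold higher than in VPM (adjusted p = 6.33e-05 and 1.47e-05). Flrt1 was likewise highest in MGv, at 18.0 ± 7.1 CPM (SD, n = 3), and stood at 4.36 ± 2.1 CPM in dLG (SD, n = 4) and 6.83 ± 2.2 CPM in VPM (SD, n = 4; adjusted p = 0.00373 and 0.0308). Flrt2 was lowest there, at 5.50 ± 4.2 CPM (SD, n = 3), and stood at 22.2 ± 5.0 CPM in dLG (SD, n = 4) and 29.3 ± 6.5 CPM in VPM (SD, n = 4; adjusted p = 0.00430 and 0.00150). Flrt1 and Flrt3 were thus highest in MGv, which 3.66% of all genes were.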

How the data were processed

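RNA of sorted tdTomato-positive cells was amplified (SMARTer kit for ultra low input) and sequenced in single reads. The deposited files hold raw read counts of genes, which the authors made by trimming, aligning to mm10 (GRCm38) and counting in Ensembl genes. The submitters' processing notes list FastQC 0.11.7, Trim Galore 0.6.1, cutadapt 2.3, STAR 2.7.0d, SAMtools 1.9 and featureCounts of Subread 1.6.4. The strand setting and the treatment of multi-mapping reads are not given in the sources used here.

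Groups and replicate numbers came from the titles. Symbols, positions and exon lengths came from GENCODE M21, and 54723 of 54752 identifiers had a record. The test was edgeR 4.0.16 (R 4.3.3), quasi-likelihood, with 11 libraries in a model of 3 nucleus means, filterByExpr (15907 genes kept) and TMM scaling. P-values were adjusted over all genes tested (Benjamini-Hochberg, threshold 0.1). The study used DESeq2 with this threshold. The SE of a log2 fold change is its size over the square root of F. CPM are TMM-scaled. Floors and intervals cover counting error only, since PCR reads without molecular identifiers are not independent molecules.

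Values in every library are given for members called in any contrast and for the most abundant member of each class per length, and of the other pathway genes the 6 called with the largest fold change are described. The members, lists and tests were chosen with earlier results of these data known. Grb2, Ptpn11, Scn8a, Araf, Map2k2, Ksr1, Kl, Klb, Fgf3, Hspa8 and the antisense genes were chosen for mention with their values in view. The alternatives comprised limma 3.58.1 (voom, quality weights), DESeq2 1.42.0, edgeR's robust fit, other scalings and filters, thinning, a replicate block, a term for the libraries low in Hspa8, their removal, stricter thresholds, only the nuclei compared, and leaving out each library. The count model was tested on simulated data. Replicate numbers were not taken to pair libraries.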

Additional observations from a re-analysis of the deposited data

Results flagged for a closer look

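A gap test for a lone high or low library (Dixon) was applied to the 4 dLG and the 4 VPM libraries, for the 21 tested members and 12 marker lists. It marked 6 of 66 groups, where chance marks about 1 in 20. Among the members, VPM replicate 3 was the highest for Fgfrl1, at 0.558 CPM against 0.130 to 0.185 CPM in the other VPM libraries, and the lowest for Spry4, at 0.868 CPM against 1.81 to 1.95 CPM. Neither gene was called in a contrast. VPM replicate 3 was also the lowest for the summed thalamic neuron markers, at 2441 CPM against 3171 to 3266 CPM, and is among the libraries low in Hspa8. Progenitor and astroglial markers summed to 294.8 CPM in VPM replicate 4 against 227.2 to 235.4 CPM. Oligodendrocyte lineage markers summed to 30.5 CPM in dLG replicate 2 against 13.1 to 15.8 CPM, and hemoglobin genes to 512.1 CPM in dLG replicate 3 against at most 0.344 CPM.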

How the results depend on the processing

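Alternatives were computed for the 16 calls of members and the 6 counts of calls, and not for single genes of the wider pathway. Of the counts, 137 of 150 recomputed values stayed within 1.5 times the value reported. Requiring 10 counts in every library left 9 members to test and 3, 2 and 2 called in the contrasts of dLG with VPM, dLG with MGv and VPM with MGv (reported: 7, 5 and 4), and 2 other pathway genes in dLG against VPM (reported: 5). For dLG against MGv, 8 members were called by DESeq2, by limma voom, with a term for the libraries low in Hspa8 and without these libraries. Over all genes these settings called 3096, 3068, 3295 and 3209 (reported: 2562), and DESeq2 tested 27 members. DESeq2 added Spry2, Fgf3 and Fgf13, voom added Fgf10, Spry4, Fgf13 and Fgfr3 and lost Spry1, the term added Spry2, Fgf13 and Fgfr3, and the removal added Fgf12, Spry4 and Fgf13. Other pathway genes called in dLG against VPM numbered 16 by voom, 11 without the libraries low in Hspa8 and 3 at an absolute log2 fold change over 1, and 4 in VPM against MGv at that fold (reported: 12). Over all genes the same settings called 4414, 2618 and 922 in dLG against VPM (reported: 1704) and 1559 in VPM against MGv (reported: 3016). The causes of these shifts were not tested, apart from the smaller set tested under the strict filter and the narrower rule on fold. Without 1 library, 6 to 7, 4 to 7 and 3 to 4 members were called, and 4 to 7, 8 to 13 and 6 to 12 other pathway genes, the 6 without MGv replicate 1. With the replicate block, 7, 4 and 3 members and 4, 10 and 9 other pathway genes were called, and the members lost were Spry1 in dLG against MGv (adjusted p = 0.237) and Fgf5 in VPM against MGv (0.114). Same-numbered libraries had correlations of deviations between -0.203 and 0.483, with 2 of 10 above 0.1. The highest was that of dLG replicate 4 with VPM replicate 4. Differently numbered libraries had -0.311 to 0.268, with 6 of 30 above 0.1, so the numbers were not taken to pair libraries. Among the 16 calls of named members, the direction was kept in all 390 alternative values and the call lost in 33, mostly for Fgf5 and Spry1. The stricter thresholds were applied to the main fit, so the direction was fixed in those. Scaling to total counts moved the median of all genes in dLG against VPM to 0.102 (log2). Depth limits the statements on ligands and ETS factors below about 1 CPM, most of all in MGv.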
